A study of Mus musculus with 24 samples.

Results

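Astrocytes of the mouse lumbar spinal cord were described from single nuclei captured in droplets. The class consisted of the nuclei that carry the astrocyte label in the deposited cell type column, which holds 1224 of the 13425 nuclei with a class (9.12%) and of 18000 barcodes in all. The nuclei came from 24 libraries of male and female ICR/CD-1 outbred mice aged 8 to 11 weeks, each counted here as 1 mouse. Sex was not a term in any test. The 9 control mice carried no label of a stimulus, the 10 formalin mice had received by injection 30 µl of a 2% paraformaldehyde solution in both hindpaws, and the 5 rotarod mice had run on a rod that accelerated up to 40 rpm over 5 min. Mice given either stimulus had first been habituated to the environment for 1 h, and all cords were taken after CO2 with the dorsal root ganglia removed. The time from stimulus to tissue collection was not given in the sources used here, and the tissue label reads brain where the protocol describes dissected lumbar cord. The astrocyte sets held 483 nuclei of control, 556 of formalin and 185 of rotarod mice.

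Astrocytes are the glia that keep the space around neurons in order. Their processes take glutamate, GABA and glycine out of the synaptic cleft, buffer potassium through inward-rectifier channels and the sodium pump, and move water through aquaporin-4 at endfeet on blood vessels. They are joined into networks by connexin gap junctions, hold the glycogen store of nervous tissue and make much of its cholesterol. In the spinal cord they are usually divided into protoplasmic cells of the grey matter and fibrous cells of the white matter, the latter rich in the intermediate filament protein GFAP.

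The depth of an astrocyte nucleus was modest. The median was 1214.5 UMIs (unique molecular identifiers, each counting 1 captured RNA molecule; range 251 to 6965) and 765 genes. Counts were summed over the astrocytes of each mouse, which left 31555 to 157158 UMIs in a control mouse, 34173 to 107097 in a formalin mouse and 23425 to 100944 in a rotarod mouse. Control 9 gave 6 astrocyte nuclei, under the minimum of 10, and entered only the comparison of shares, so 8 control, 10 formalin and 5 rotarod mice (23 in all) were used. Levels below are CPM, the UMIs of a gene in every 1000000 UMIs of that class in that mouse. They were not divided by gene length, so levels were compared between classes or mice and never between genes. No astrocyte barcode string was shared between mice, and 23 strings were shared among all barcodes. Each formalin library resembled 1 other: the libraries numbered 1 to 5 correlated with those numbered 6 to 10 in order (mean r = 0.16 across genes, closest partner in 10 of 10), and whether the formalin libraries came from 10 separate mice could not be told from the labels. P-values therefore measure the spread between these libraries, and results with the pairs merged are given below where calls differ.

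The label matched its defining markers. Slc1a2 and Slc1a3, the glutamate transporters GLT-1 and GLAST, with Gfap and Aqp4, summed to 3843 ± 844 CPM (SD, n = 23 mice) in astrocytes, with 2331 to 5488 in single mice. The same sum was 151 in neurons, 477 in oligodendrocytes, 574 in the meningeal or Schwann class and 878 in the endothelial or vascular class. A wider list of 24 astrocyte markers summed to 23427 ± 2134 CPM in astrocytes and to 1564, 1988, 4063 and 4361 in the same 4 classes. After each nucleus was thinned to 500 UMIs (1137 astrocytes, 87 shallower ones left out), every astrocyte nucleus had at least 1 of the 24 markers, against 47.4% of neurons. At the same depth 82.5% of astrocytes and 8.82% of neurons had a UMI of at least 1 of the 4 first markers.

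Single markers marked the class unequally. Slc1a2 was seen in 70.4% of thinned astrocytes (95% exact binomial interval 67.6 to 73.0, counting error only), against 6.20% of neurons, and in 88.6% of astrocytes before thinning. Gpc5, which encodes the proteoglycan glypican-5, was seen in 79.9% of thinned astrocytes but also in 27.8% of neurons. Slc7a10, the alanine-serine-cysteine transporter Asc-1, was seen in 33.7% of astrocytes and 0.576% of neurons. Gfap was seen in 8.44% of thinned astrocytes (6.89 to 10.2; 17.3% before thinning) and 0.605% of neurons, so most nuclei of the class carried no Gfap molecule at this depth. Median depths before thinning were 1214.5 UMIs in astrocytes and 2214 in neurons.

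**Figure D1:**
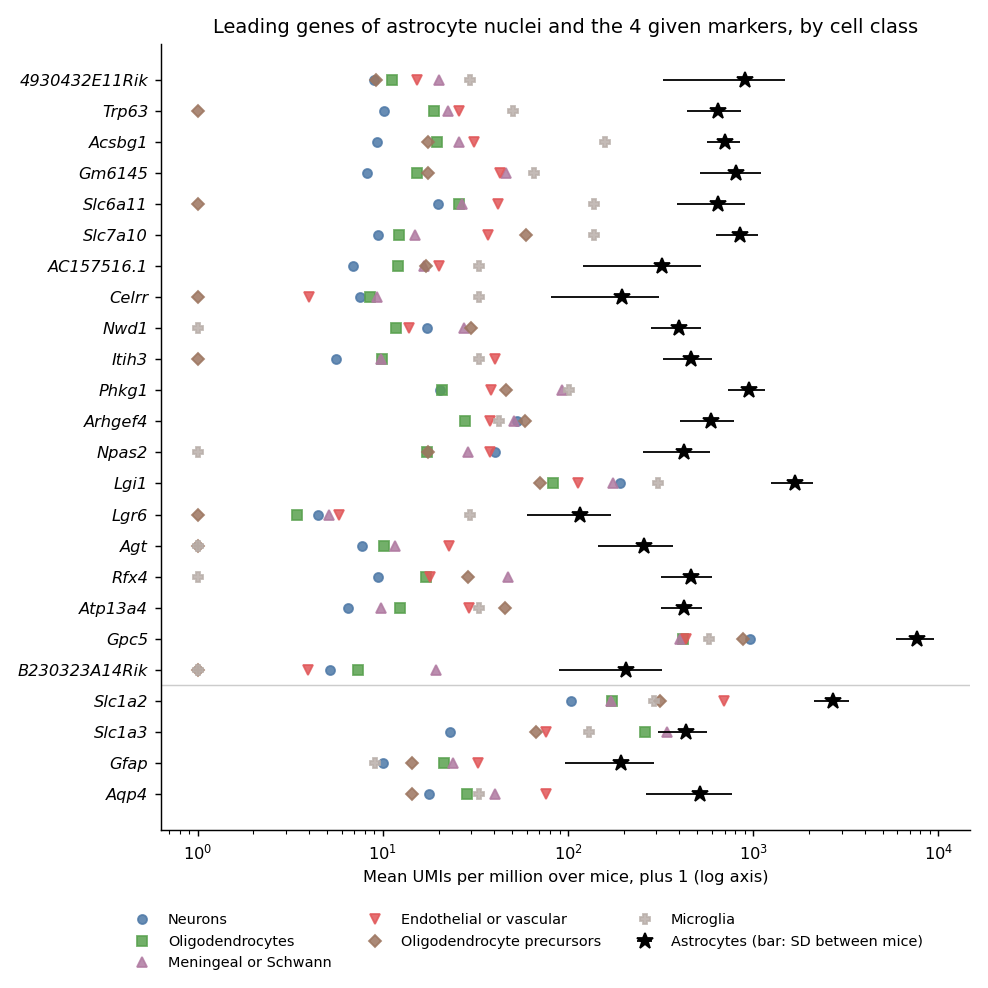
Mean CPM + 1 on a log axis of the genes with the largest ratio of astrocytes over the highest other class, by class, with the 4 defining markers below the line; the star is the astrocyte mean over 23 mice with its SD. Each star stands to the right of the other classes, as for Slc7a10 at 846 CPM in astrocytes and 8.38 in neurons.

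The comparison of classes below is a description without a test, because the classes were clustered on these genes. A gene was counted as higher where the within-mouse ratio of CPM + 10 averaged at least 2-fold and astrocytes were above the other class in every mouse, among genes of at least 20 CPM in 1 of both classes. By this rule 461 of 7743 genes (5.95%) were higher and 769 (9.93%) lower in astrocytes than in neurons, and 417 of 7445 (5.6%) were higher and 432 (5.8%) lower than in oligodendrocytes. Against the meningeal or Schwann class 3.92% of genes were higher and 4.65% lower, and against the endothelial or vascular class (22 mice) 4.69% and 4.95%. Against oligodendrocyte precursors (6 mice) the shares were 8.49% and 2.18%, and against microglia (4 mice) 10.5% and 1.61%. The median log2 ratio over all genes compared was −0.29 against neurons and −0.13 against oligodendrocytes.

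The genes that stood farthest above the other classes were not all classic markers. Microglia, with 4 mice, were left out of this ranking. The pseudogene transcript 4930432E11Rik had 903 ± 577 CPM in astrocytes and 19.2 in the next class. Trp63, which encodes the transcription factor p63, known for epithelial stem cells, had 646 ± 210 CPM (287 to 1064 in single mice) and 24.8 in the next class. Acsbg1, the long-chain acyl-CoA synthetase known as bubblegum, had 706 ± 145 CPM against 30.1 in the next class. The remaining genes of the 20 included Phkg1, the catalytic subunit of phosphorylase kinase that switches on glycogen breakdown (946 ± 217), Npas2, a partner of the clock protein BMAL1 (420 ± 166), the secreted synaptic protein gene Lgi1 (1673 ± 429), Agt, the angiotensin precursor (256 ± 112), and Rfx4, a factor of ventral neural tube patterning (459 ± 142).

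Of 17 genes of transmitter uptake and recycling compared with neurons, 10 were higher in astrocytes and none lower, with a median log2 ratio of 2.04, and 9 of 17 were higher than in oligodendrocytes. Slc1a2 had 2701 ± 575 CPM in astrocytes, 103 in neurons, 171 in oligodendrocytes and 696 in the endothelial or vascular class. Slc1a3 separated the class less well, at 433 ± 126 CPM against 258 in oligodendrocytes and 342 in the meningeal or Schwann class. The GABA transporter gene Slc6a11 (GAT-3) had 647 ± 259 CPM against 18.9 in neurons. Slc6a9, the glycine transporter GlyT1, had 195 ± 89.2 against 14.3. Glud1, glutamate dehydrogenase, had 403 ± 126 CPM in astrocytes and 94.3 in neurons, whereas Abat, the GABA transaminase, had 292 ± 70.6 and 208 and did not reach the 2-fold rule.

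The genes of potassium, water and ion transport showed 7 of 14 members higher than in neurons and none lower (median log2 ratio 2.88). Atp1b2, which encodes a beta subunit of the sodium pump, had 365 ± 245 CPM against 20.4 in neurons and a range of 85.4 to 883 across mice. Slc4a4, the sodium bicarbonate cotransporter, had 2526 ± 436 CPM against 87.0. Kcnj10, the inward rectifier Kir4.1, had 436 ± 129 CPM against 26.7 in neurons, with 211 in oligodendrocytes and 260 in the endothelial or vascular class. Aqp4 had 516 ± 253 CPM against 16.7 in neurons and 27.4 in oligodendrocytes. Slc12a2, the chloride importer NKCC1, went the other way, at 84.1 ± 50.3 CPM against 497 in oligodendrocytes.

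Both connexin genes compared were higher than in neurons: Gja1 (connexin 43) had 316 ± 132 CPM against 8.23, and Gjb6 (connexin 30) had 129 ± 48.5 against 3.18. Gjb2 and Panx1 had 3.01 and 2.12 CPM, each at 0 in 20 of 23 mice. Of 8 genes of the dystrophin complex that anchors aquaporin-4 at endfeet, 3 were higher than in neurons. Dtna, encoding dystrobrevin alpha, had 1507 ± 298 CPM against 405 in neurons and 128 in the endothelial or vascular class. Utrn, the dystrophin relative utrophin, had 748 ± 199 CPM in astrocytes, 119 in neurons and 2024 in the endothelial or vascular class. Filament and cytoskeleton genes were sparse by comparison. Gfap had 193 ± 98.6 CPM against 8.99 in neurons, S100b had 203 ± 94.4 against 45.2, and 2 of 6 members were higher and 1, Plec, lower than in neurons. Nes, the filament gene nestin, had 20.4 ± 30.6 CPM in astrocytes and 667 in the endothelial or vascular class.

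Of 19 lineage transcription factors compared, 11 were higher than in neurons (median log2 ratio 2.26) and 4 higher than in the meningeal or Schwann class. Npas3, a basic helix-loop-helix factor of neural development, had 4724 ± 926 CPM against 416 in neurons. Rorb, the orphan receptor RORβ, had 1076 ± 276 against 141, Nfia, a factor that opens gliogenesis, had 1296 ± 254 against 175, and Gli3, a mediator of hedgehog signalling, had 185 ± 58.0 against 5.06. Zeb2 was higher in oligodendrocytes, at 2835 CPM against 534 ± 123. Genes of position along the body axis were those of the caudal trunk and not of the forebrain. Hoxa9, a homeobox gene of the caudal trunk, had 123 ± 39.7 CPM and the 13 measured lumbar Hox genes summed to 250 ± 77.4 CPM, between 106 and 421 in every mouse used. The 9 measured forebrain genes summed to 9.88 ± 12.7, with 7 of them at 0 in all 23 mice. Pax3, a dorsal patterning factor, had 82.5 ± 52.1 CPM in astrocytes and 1.59 in neurons.

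Metabolic genes were split. Among cholesterol and lipid genes 8 of 24 were higher than in neurons (median log2 ratio 1.28), led by Acsbg1, with Apoe, the apolipoprotein that carries cholesterol, at 335 ± 167 CPM against 39.1 in neurons and 404 in the endothelial or vascular class. In the glycogen and glycolysis list 5 of 15 were higher. Pygm, the muscle type of glycogen phosphorylase, had 154 ± 81.7 CPM against 3.38. Of 8 genes of fatty acid oxidation, Acot11 (an acyl-CoA thioesterase, 164 ± 58.5 against 4.03) and Ppara (the lipid-sensing receptor PPARα, 160 ± 49.2 against 6.06) were higher than in neurons. The autophagy list had 0 of 13 members higher than neurons, and its median log2 ratio was −0.40.

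Among 24 receptor genes 9 were higher than in neurons and 2 lower. Fgfr3, a fibroblast growth factor receptor of the glial lineage, had 261 ± 79.5 CPM against 3.21, Ntsr2, the low-affinity neurotensin receptor, had 276 ± 97.9 against 6.51, and Ptch1, the hedgehog receptor, had 605 ± 158 against 54.9. Glutamate receptor subunits ran the other way, with 1 of 20 higher and 9 lower than in neurons and a median log2 ratio of −0.98. Against oligodendrocytes 5 of 19 of these subunits were higher and 1 lower. Gria2, the AMPA receptor subunit that blocks calcium entry, had 653 ± 155 CPM in astrocytes, 905 in neurons and 174 in oligodendrocytes, and Grm5, a metabotropic receptor, had 1009 ± 300, 1884 and 518. In the list of secreted and adhesion genes that act on synapses, 14 of 28 were higher than in neurons. Lsamp, a limbic-system cell adhesion protein, had 18604 ± 2646 CPM against 8472, Gpc5 had 7679 ± 1750 against 963, and Sparcl1 (hevin) had 2382 ± 733 against 284 but 1801 in the endothelial or vascular class.

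RNA of other classes was present at a low level in astrocyte nuclei. The 13 measured neuron markers summed to 7783 ± 2864 CPM in astrocytes, to 8296 in oligodendrocytes, to 8390 in the meningeal or Schwann class and to 42556 in neurons themselves, and none was at 0. Meg3, a neuronal long noncoding RNA, had 5734 ± 2244 CPM in astrocytes, 5934 in oligodendrocytes and 5655 in the meningeal or Schwann class. Oligodendrocyte markers summed to 3383 ± 1493 CPM in astrocytes and 1594 in neurons, endothelial markers to 114 ± 172 (18172 in their own class) and microglial markers to 91.0 ± 61.6. These values set the level below which a gene of astrocytes cannot be read as their own, and their part in the group comparisons below was not tested.

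Nuclei with a Gfap molecule differed from the rest of the class in a set of named genes. At 500 UMIs each, 96 of 1137 nuclei had at least 1 Gfap UMI: 30 of 446 in control mice (6.73%), 53 of 529 in formalin mice (10.0%) and 13 of 162 in rotarod mice (8.02%). The UMIs of each gene in these 96 nuclei were set against the number expected from the other astrocytes of the same mice (20 mice held both kinds). Of 416 genes with at least 20 observed or expected UMIs, 75 had a 95% exact Poisson interval above 1 and 70 below it, and the median ratio was 1.04. These intervals cover counting error only, and nuclei of 1 mouse are not replicates, so no test is given, and the number of mice above or below expectation stands beside the ratio. A nucleus without a Gfap UMI at this depth may still have held Gfap RNA.

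Of 9 genes of the list of fibrous astrocyte genes, Gfap left out, 3 had intervals above 1, none below and 6 included 1, and only 2 of the 9 had 20 UMIs observed or expected. Tnc, encoding the matrix protein tenascin C, had a ratio of 6.02 (3.37 to 9.94; 15 UMIs; above expectation in 10 mice and below in 6), and Slc38a1, a neutral amino acid transporter, one of 4.19 (2.96 to 5.75; above expectation in 15 of 20 mice). Outside this list, Pkp4, a junctional plakophilin, was picked as 1 of the 10 genes with the highest lower bound, a choice that favours a high ratio. It had a ratio of 2.95 (2.11 to 3.996; 18 of 20 mice). Not every gene picked this way was above expectation in most mice. Aqp4 had a ratio of 1.91 (1.45 to 2.47; 12 of 20 mice). Ntrk2, on the fibrous list, had a ratio of 0.957 (0.592 to 1.46; above in 7 mice and below in 12).

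Of the 10 genes of the list of protoplasmic astrocyte genes, 3 had intervals below 1 (Gpc5, Trpm3 and Slc6a11), 1 above (Gja1) and 6 included 1. Gpc5 had 112 UMIs where 347 were expected, a ratio of 0.322 (0.266 to 0.388), and was below expectation in 20 of 20 mice. Trpm3, a steroid- and heat-gated cation channel, had a ratio of 0.488 (0.424 to 0.559; below in 19 mice) and Slc6a11 one of 0.609 (0.367 to 0.951; below in 14 of 20 mice). Gja1 went the other way, with a ratio of 1.70 (1.14 to 2.44; above in 14 of 20 mice). Slc1a2 had 0.875 (0.725 to 1.05; below in 13 mice), Slc7a10 0.729 (0.502 to 1.02; below in 12) and Kcnj10 0.870 (0.516 to 1.38; below in 15), whose intervals include 1. Outside the list, Lsamp, Prr16 and Hbb-bs were picked from the 10 genes with the lowest upper bound, a choice that favours a low ratio. Lsamp had a ratio of 0.619 (0.569 to 0.673; below in 20 of 20 mice) and Prr16, with 5 UMIs, one of 0.223 (0.0724 to 0.520; below in 19). Hbb-bs, a haemoglobin gene of red cells and no astrocyte gene, had 4 UMIs where 32.0 were expected, and was below in 10 mice and above in 2.

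**Figure D2:**
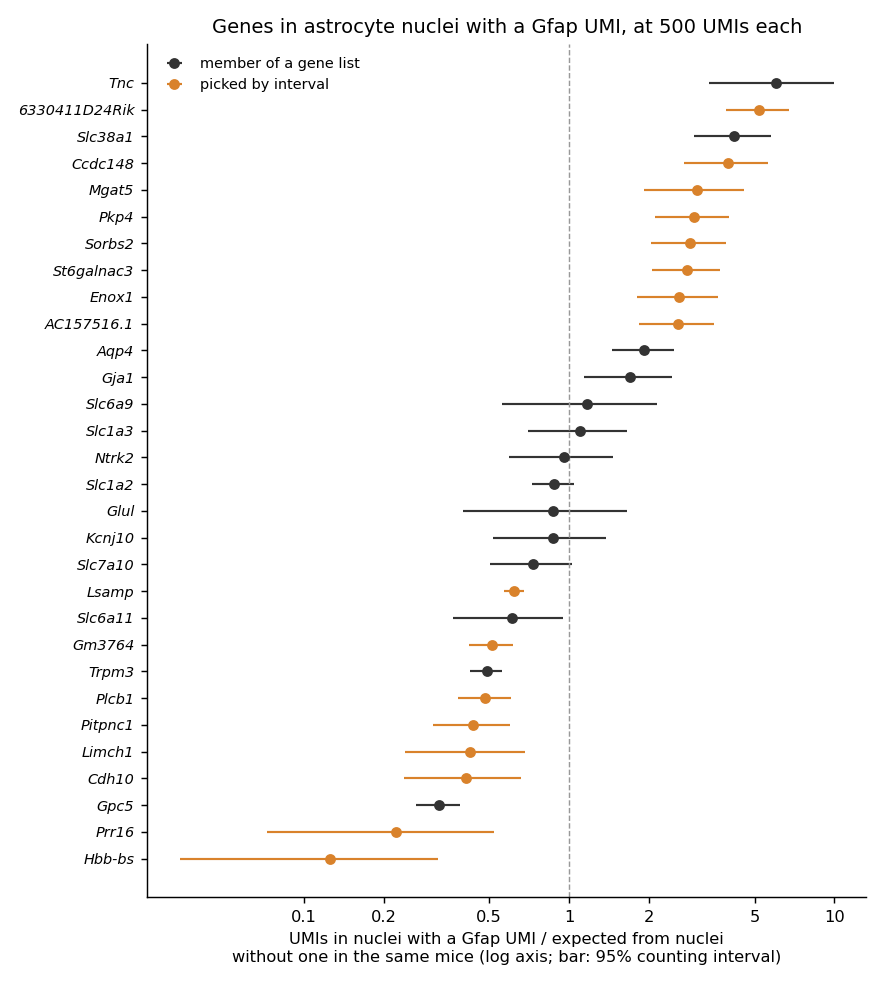
Ratio of observed to expected UMIs in the 96 thinned nuclei with a Gfap UMI against the other astrocytes of the same mice, with 95% exact Poisson intervals (counting error only), for genes with at least 10 observed or expected UMIs. Shown are members of gene lists and genes picked for the most extreme intervals. Tnc stands at 6.02 and Gpc5 at 0.322, on opposite sides of the line at 1.

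The share of astrocytes among classed nuclei differed between the stimulated groups. Control mice ranged from 0.988% to 14.05% (median 10.2%, mean 8.87% ± 4.72, n = 9), formalin mice from 9.49% to 13.5% (median 11.0%, 11.2% ± 1.24, n = 10), and the rotarod mice had 6.45%, 9.56%, 8.69%, 6.44% and 3.78% (6.98% ± 2.26, n = 5). All but 1 of the rotarod values lay below the lowest formalin value. Formalin exceeded rotarod by 4.20 percentage points (two-sided exact permutation test over 3003 arrangements, p = 0.000666, adjusted p = 0.0020 over 3 comparisons). With formalin libraries merged in pairs the difference was 4.22 (exact adjusted p = 0.0238), and as a share of all barcodes it was 2.48 (exact adjusted p = 0.0200). Formalin against control gave 2.31 points (exact p = 0.154, adjusted p = 0.232) and rotarod against control −1.89 (exact p = 0.413).

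The low end of the control range held 3 libraries whose titles end in cx, with 6.34%, 3.90% and 0.988% astrocytes, and control 6, without that ending, with 6.01%. Without the 3 cx libraries, controls still ranged from 6.01% to 14.05%, formalin stood 0.249 points below control (difference −0.249, exact p = 0.830) and rotarod 4.45 below (difference −4.45, exact p = 0.0281, adjusted p = 0.0422). A share falls when another class is captured more often, so these values are not numbers of astrocytes in the tissue.

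After formalin, no astrocyte gene passed the test against control. In edgeR's quasi-likelihood fit 0 of 1804 genes (0.0%) were called, 82 had an unadjusted p under 0.05, and DESeq2 called 0. The gene with the smallest p was Hif3a, which encodes a hypoxia-inducible factor subunit that restrains the other HIF proteins and is also induced by glucocorticoids. Its level was 43.8, 89.0 and 216 CPM (lowest, median, highest) in the 8 control mice and 153, 235 and 316 in the 10 formalin mice. All 10 formalin mice lay above the control median, and the groups overlapped through control 2, the highest control. Its log2 difference was 1.13 (SE 0.25, edgeR adjusted p = 0.0685). It was 1.49 without control 2 (edgeR adjusted p = 0.000974) and 1.19 without formalin 7 (edgeR adjusted p = 0.0390), so these single libraries decided the call.

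Zbtb16, encoding PLZF, a zinc-finger repressor also known to be induced by glucocorticoids, had 32.9, 110 and 159 CPM in control and 105, 223 and 556 in formalin mice. Its log2 difference was 1.06 (SE 0.28, edgeR adjusted p = 0.438), with 9 of 10 formalin mice above the control median. Gabrg3, a GABA-A receptor subunit, had 192, 292 and 399 CPM in control and 69.3, 169 and 309 in formalin mice, a log2 difference of −0.79 (SE 0.22, edgeR adjusted p = 0.553). Wipf1, an actin regulator, and Esrrg, the estrogen-related receptor gamma, had log2 differences of −0.63 and −0.47 (edgeR adjusted p = 0.806 for both).

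The list of glucocorticoid-responsive genes, which was written with earlier results of these data known, had sums that overlapped between the groups. They were 1878 to 2742 CPM in control mice (2343 ± 244), 2383 to 3861 in formalin mice (2973 ± 424) and 2307 to 3543 in rotarod mice (2946 ± 457). Hif3a and Zbtb16 are members, and without them the sums were 2141 ± 217 CPM in control, 2492 ± 389 in formalin and 2445 ± 355 in rotarod mice. No test is given for a sum over chosen members. Of its 27 members 10 were tested against control: 8 had a positive and 2 a negative difference after formalin, beside 905 positive of all 1804 genes. Of the 10, 5 had an unadjusted p under 0.05, beside 82 of the 1804, and none was called. The median log2 difference of these 10 was 0.49, against 0.00 over all genes tested. These counts and this median include Hif3a and Zbtb16, the genes with the smallest p of the comparison. With members chosen this way they describe the list only. Klf9, a Krüppel-like factor (log2 0.52, unadjusted p = 0.0353), and Mertk, the receptor for clearance of synapses and debris (0.45, unadjusted p = 0.0271), were among the 5, each with an edgeR adjusted p of 0.934.

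The markers of the class itself did not pass the test after formalin. Gfap had 63.4, 145 and 274 CPM in control and 103, 216 and 464 in formalin mice (log2 0.44, SE 0.26, edgeR adjusted p = 0.934), and Aqp4 had 127, 360 and 964 against 318, 548 and 950 (log2 0.36, SE 0.30, edgeR adjusted p = 0.934). The 39 genes of the reactive astrocyte list summed to 480 ± 89.3 CPM in control and 653 ± 157 in formalin mice, with 2 members tested, both positive and neither called. The 32 rapid activity genes, such as Jun and Klf6, had no member abundant enough to be tested and summed to 115 ± 65.7 CPM in control, 186 ± 75.4 in formalin and 161 ± 37.8 in rotarod mice. Of 15 tested glutamate receptor subunits 14 had a negative difference after formalin (median log2 −0.20) and 11 after rotarod (median −0.08), beside 899 and 913 of 1804 genes, and none was called in either comparison.

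Mean sums of RNA of other cells differed between the groups, with wide spreads between mice. Meningeal markers summed to 138 ± 47.1 CPM in astrocytes of control, 251 ± 73.4 in formalin and 184 ± 55.8 in rotarod mice (8 markers, none at 0 in the class). Haemoglobin and other blood genes summed to 101 ± 63.9 CPM in control, 1012 ± 2149 in formalin and 760 ± 1381 in rotarod mice. The highest single mouse had 7032 CPM of these blood genes, and the SD exceeded the mean in both stimulated groups. Neuron markers summed to 8590 ± 3757, 7742 ± 2627 and 6574 ± 1318 CPM in the same order, and the 10 measured mitochondrially encoded genes to 3078 ± 1766, 3595 ± 2030 and 5854 ± 3367. The part of these in the differences between groups was not tested.

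**Figure D3:**
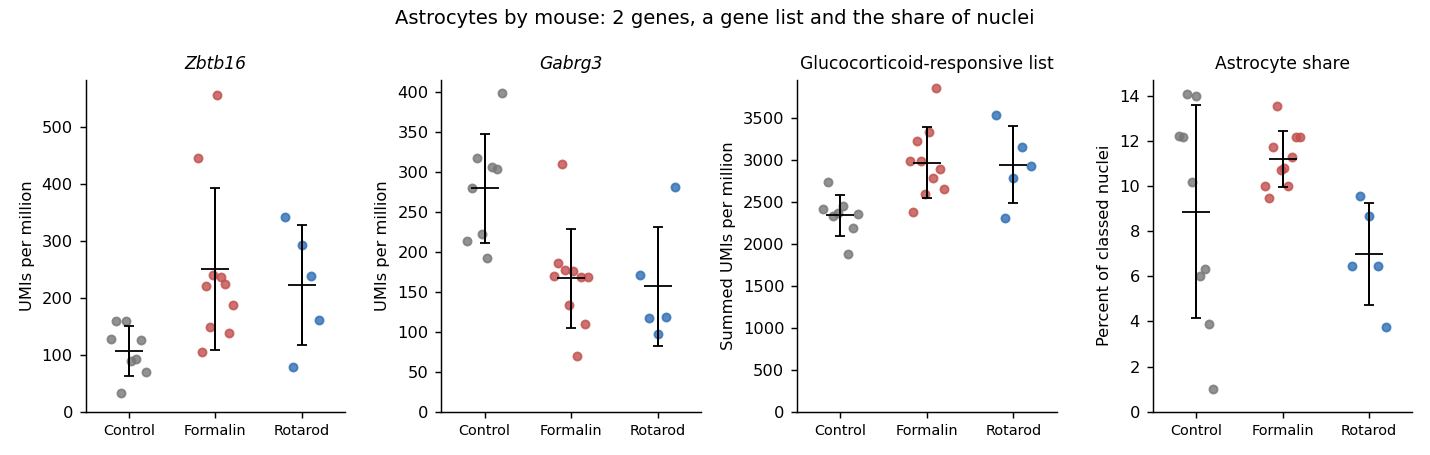
Values per mouse of Zbtb16, Gabrg3 and the glucocorticoid-responsive list (CPM in astrocytes) and of the astrocyte share of classed nuclei (percent) in control, formalin and rotarod mice; bars are mean ± SD. The formalin shares lie between 9.49% and 13.5%, and control shares reach down to 0.988%.

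After the rotarod run, 7 of 1804 genes (0.388%) were called against control, 6 higher (0.333%) and 1 lower (0.0554%). Atg4a, Hif3a, Upf2, Snx9, Stxbp3 and Daam2 were higher and Ccnl2 was lower. An unadjusted p under 0.05 was found for 151 genes, and DESeq2 called 3, which were Atg4a, Hif3a and Upf2. The bases upstream of 4 of these genes are shown because the genes moved in the same comparison and RefSeq gives for them a window free of annotated UTR. Each is the 250 bases before a RefSeq gene start in build GRCm38.p6, 5′ to 3′ on the gene's strand, and windows were found for 25 of 32 genes looked up.
Hif3a, chr7:17062428-17062677, minus strand: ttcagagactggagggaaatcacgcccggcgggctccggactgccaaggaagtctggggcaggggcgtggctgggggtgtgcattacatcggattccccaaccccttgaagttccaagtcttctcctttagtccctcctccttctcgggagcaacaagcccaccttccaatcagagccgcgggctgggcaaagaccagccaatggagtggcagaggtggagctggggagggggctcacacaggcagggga
Upf2, chr2:5951219-5951468, plus strand: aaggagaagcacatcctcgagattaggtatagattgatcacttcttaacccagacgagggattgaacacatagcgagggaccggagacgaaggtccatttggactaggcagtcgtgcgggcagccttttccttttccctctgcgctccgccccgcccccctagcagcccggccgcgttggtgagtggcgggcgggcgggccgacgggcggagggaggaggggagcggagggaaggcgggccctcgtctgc
Ccnl2, chr4:155812239-155812488, plus strand: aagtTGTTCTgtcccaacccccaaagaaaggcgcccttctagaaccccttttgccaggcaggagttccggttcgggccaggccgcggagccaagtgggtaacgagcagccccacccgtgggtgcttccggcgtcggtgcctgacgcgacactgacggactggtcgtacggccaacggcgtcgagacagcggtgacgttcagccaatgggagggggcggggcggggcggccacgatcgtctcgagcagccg
Atg4a, chrX:140953595-140953844, plus strand, before the upstream one of its RefSeq starts: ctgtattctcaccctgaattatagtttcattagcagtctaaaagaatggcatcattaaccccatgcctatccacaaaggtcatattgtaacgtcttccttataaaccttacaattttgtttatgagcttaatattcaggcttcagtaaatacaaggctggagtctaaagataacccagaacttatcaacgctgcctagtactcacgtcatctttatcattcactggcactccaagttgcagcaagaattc

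Capitals mark the only match to a searched motif in the printed windows, a glucocorticoid receptor half-site (AGAACA on either strand), which lies in the Ccnl2 window at position 5 on the minus strand. Both strands were searched for AGAACA, found in 16.1% of all 32851 windows of this length, for the STAT motif TTCNNNGAA (7.02%), the AP-1 motif TGANTCA (6.75%) and the cyclic AMP element TGACGTCA (1.55%). The windows of Stxbp3 and Daam2, not printed because they overlap annotated UTR, do hold TGACGTCA. The windows differ in base composition. Upf2 and Ccnl2 have 22 and 27 CpG dinucleotides and 64.0% and 66.8% G or C, Hif3a has 9 and 62.0%, and the printed Atg4a window has 3 and 38.0%, against a median of 6 CpG and 52.4% over all windows. The window before the other Atg4a start (chrX:140956657-140956906), not printed because it overlaps annotated UTR, has 9 CpG and 52.4%. A match of letters is not a binding site, and its lack says nothing of a factor.

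Atg4a, whose cysteine protease trims LC3-family proteins in autophagy (chrX:140956907-141164270), had the largest rise. The rotarod mice had 256, 860, 1718, 367 and 602 CPM, and the control mice 98.6, 188 and 350 (lowest, median, highest). Only rotarod 1 lay within the control range. Rotarod exceeded control by a log2 difference of 1.88 (SE 0.35, edgeR adjusted p = 0.0112). Atg4a stayed called with each of the 13 mice left out in turn and under the 8 other settings that gave it a value. Its log2 difference there was between 1.43 and 2.09. Thinned nuclei were not among these 8 settings, because Atg4a was not abundant enough to be tested with them. No other member of the autophagy list was called, of 2 that were tested.

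Hif3a (chr7:17031507-17062427, minus strand) was called here as well. Rotarod mice had 299, 235, 292, 406 and 161 CPM, all above the control median of 89.0, with overlap through control 2 at 216. This gave a log2 difference of 1.46 (SE 0.30, edgeR adjusted p = 0.0112), and the call was lost without rotarod 4 (1.16, edgeR adjusted p = 0.264). Formalin and rotarod comparisons share their control mice, so both Hif3a differences rest on the same 8 controls. In the glucocorticoid-responsive list 7 of the 10 tested members had a positive difference after rotarod, beside 891 of all 1804 genes. The median was 0.49 against −0.01 over all genes tested, and Hif3a alone was called. Hif3a is included in these values, and the list was written with earlier results of these data known. Cables1, a cyclin-dependent kinase partner on that list, had a log2 difference of 1.26 (edgeR adjusted p = 0.0912), and Nr3c1, the glucocorticoid receptor gene, one of 0.85 (edgeR adjusted p = 0.336).

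Upf2, a core factor of nonsense-mediated mRNA decay (chr2:5951469-6056703), had 384, 313, 324, 218 and 201 CPM in rotarod and 29.5, 102 and 285 in control mice, with the groups overlapping through control 4. This gave a log2 difference of 1.45 (SE 0.33, edgeR adjusted p = 0.0223). It was no longer called without control 3 (edgeR adjusted p = 0.0571), rotarod 1 (0.112), rotarod 2 (0.0752) or rotarod 3 (0.0673).

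Snx9, a sorting nexin of clathrin-mediated endocytosis (chr17:5841329-5931954), had 427, 195, 259, 277 and 201 CPM in rotarod and 32.9, 94.3 and 146 in control mice, with no overlap. Its log2 difference was 1.37 (SE 0.32, edgeR adjusted p = 0.0277). That call was lost without control 1 (edgeR adjusted p = 0.0764), control 3 (0.0723), control 7 (0.0719), control 8 (0.0525), rotarod 1 (0.192), rotarod 3 (0.0673) or rotarod 4 (0.221).

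Stxbp3, a Munc18 protein that guides syntaxin in vesicle fusion (chr3:108793176-108840526, minus strand), had 213, 274, 421, 238 and 241 CPM in rotarod and 76.7, 112 and 190 in control mice. The groups did not overlap. Its log2 difference was 1.34 (SE 0.31, edgeR adjusted p = 0.0269), lost without control 1 (edgeR adjusted p = 0.0764), control 3 (0.0571), rotarod 1 (0.0514), rotarod 2 (0.0752), rotarod 3 (0.209) or rotarod 4 (0.0722).

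Daam2, a formin that acts in Wnt signalling (chr17:49456022-49564343, minus strand), had 811, 684, 940, 634 and 723 CPM in rotarod and 312, 455 and 579 in control mice, again without overlap. The log2 difference of 0.75 (SE 0.18, edgeR adjusted p = 0.0364) was the smallest of the 7 and held its call only without control 2. With any of the other 7 controls or any of the 5 rotarod mice left out, its edgeR adjusted p was between 0.0516 and 0.296. With formalin libraries merged in pairs, which changes the shared estimate of the spread, Daam2 also lost its call (edgeR adjusted p = 0.0773) and Dok5, a gene outside the rule for named genes, gained one.

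Ccnl2, cyclin L2, a regulator of splicing (chr4:155812489-155824543), was the gene that fell. Rotarod mice had 42.7, 78.2, 64.8, 79.3 and 20.1 CPM, which rest on 16 UMIs in all, and control mice had 121, 200 and 288. The groups did not overlap, the log2 difference was −1.63 (SE 0.36, edgeR adjusted p = 0.0223), and the call was lost without control 1 (edgeR adjusted p = 0.0684), rotarod 1 (0.0514), rotarod 3 (0.0673) or rotarod 5 (0.0878). Without the 3 cx controls the calls of Snx9 (edgeR adjusted p = 0.0897), Stxbp3 (0.0627) and Daam2 (0.190) were lost, and with nuclei above 2% of other-class markers removed those of the same 3 genes (0.0779, 0.155 and 0.0779).

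**Figure D4:**
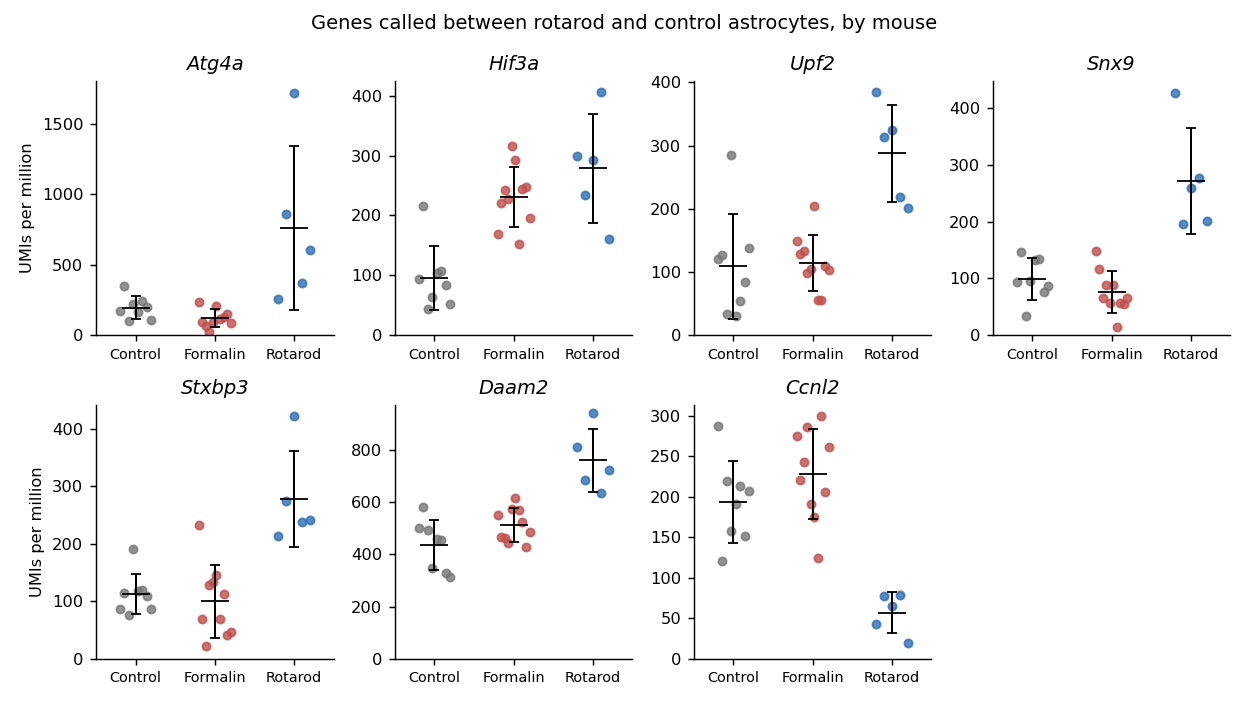
CPM in astrocytes per mouse of the 7 genes called between rotarod and control mice, in control, formalin and rotarod mice; bars are mean ± SD. Rotarod mice lie above control mice for 6 genes on average and below for Ccnl2, with no overlap for Snx9, Stxbp3, Daam2 and Ccnl2.

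The 4 defining markers were not called after rotarod either. Slc1a2 had 2519, 2659, 3307, 2487 and 2569 CPM against 1585, 2663 and 3976 in control mice (log2 0.05, SE 0.17, edgeR adjusted p = 0.955), a difference whose sign turned under several settings. Gfap had 171, 137, 357, 79.3 and 100 CPM (log2 −0.18, SE 0.37, edgeR adjusted p = 0.915), turning to 0.0788 without rotarod 4. Slc1a3 had a log2 difference of 0.47 (SE 0.23, edgeR adjusted p = 0.568) and Aqp4 one of −0.59 (SE 0.42, edgeR adjusted p = 0.718).

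Formalin against rotarod gave the largest set of called genes, 24 of 1804 (1.33%), of which 6 were higher (0.333%) and 18 lower (0.998%) after formalin. An unadjusted p under 0.05 was found for 222 genes, and DESeq2 called 26, of which 23 were shared. With formalin libraries merged in pairs 14 genes were called, and Rmdn1, Snhg11, Eif3a, Atrx, Ddo, Esrrg, mt-Rnr1, Ppp4r1l-ps, Sptbn1 and Wipf1 lost their calls. This comparison alone does not say which stimulated group moved. Control levels are given below for Atp1b2, Ttyh1, Ccnl2, Atg4a and Slc6a11, and were given above for Snx9, Stxbp3 and Upf2. For the other genes of this comparison control levels are not given here. Ttyh1 has an antisense neighbour with 379 UMIs in astrocytes and Rmdn1 shares bases with Gm12353 (199 UMIs), and whether counting used strand was not given in the sources used here.

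Atp1b2, the sodium pump subunit, was the largest rise. It had 254, 351 and 883 CPM in formalin mice and 85.4, 137, 194.5, 129 and 141 in rotarod mice, with no overlap, and 127, 270 and 570 in control mice, which lie between. The log2 difference was 1.89 (SE 0.41, edgeR adjusted p = 0.0144), lost without rotarod 2 (edgeR adjusted p = 0.0661) or rotarod 4 (0.0681). Of 7 tested members of the potassium, water and ion list Atp1b2 was the only one called, with a list median of 0.21 against 0.01 over all genes tested.

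Ttyh1, a chloride channel family gene of glia, had 685, 745 and 1368 CPM in formalin and 427, 332, 486, 446 and 502 in rotarod mice, without overlap, with a control median of 493.1. Its log2 difference was 0.96 (SE 0.23, edgeR adjusted p = 0.0185), lost without rotarod 2 (edgeR adjusted p = 0.0673). Ccnl2 had 125, 232 and 300 CPM in formalin mice, close to the control median of 200, and a log2 difference of 1.85 (SE 0.35, edgeR adjusted p = 0.00182) that was kept without any 1 mouse.

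Rmdn1, a regulator of microtubules, had 16 UMIs in rotarod mice and a log2 difference of 1.46 (SE 0.38, edgeR adjusted p = 0.0328). It was lost without formalin 3 (edgeR adjusted p = 0.0520), formalin 7 (0.0685), rotarod 2 (0.162), rotarod 3 (0.128), rotarod 4 (0.0611) or rotarod 5 (0.0702).

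Snhg11, a noncoding RNA that is itself on the neuron marker list, had 276, 609 and 1060 CPM in formalin and 256, 371, 32.4, 248 and 301 in rotarod mice, while neurons had a mean of 6162. The log2 difference was 1.24 (SE 0.32, edgeR adjusted p = 0.0377). It kept its call without formalin 4, formalin 5, formalin 9 or formalin 10 and lost it without any other single mouse of these groups (edgeR adjusted p between 0.0520 and 0.129).

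Of the genes lower after formalin, 3 repeated from the rotarod comparison with formalin levels at or below control. Atg4a had 19.7, 103 and 233 CPM in formalin mice against a control median of 188 and a log2 difference from rotarod of −2.75 (SE 0.36, edgeR adjusted p = 3.06e-05), without overlap. Snx9 had 13.9, 65.8 and 148 CPM (log2 −1.82, SE 0.33, edgeR adjusted p = 0.00109) and Stxbp3 22.1, 91.1 and 233 (log2 −1.50, SE 0.31, edgeR adjusted p = 0.00440). All 3 stayed called without any 1 mouse. Upf2 had 55.4, 107 and 205 CPM and a log2 difference of −1.32 (SE 0.32, edgeR adjusted p = 0.0191), lost without rotarod 1 (edgeR adjusted p = 0.0738), rotarod 2 (0.0783) or rotarod 3 (0.0512).

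Slc6a11, the astrocyte GABA transporter, was called among the class's own markers. Formalin mice had 233, 524 and 728 CPM and rotarod mice 1323, 880, 1135, 812 and 823, with no overlap and a control range of 430 to 909 around a median of 587. The log2 difference was −0.93 (SE 0.21, edgeR adjusted p = 0.0122), lost without rotarod 1 (edgeR adjusted p = 0.0666). Against control, Slc6a11 had log2 differences of −0.28 after formalin (edgeR adjusted p = 0.934) and 0.65 after rotarod (edgeR adjusted p = 0.355). Of 11 tested genes of transmitter uptake and recycling it was the only one called, with 6 members positive and 5 negative.

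Notch3, the Notch receptor of mural cells that is on the pericyte list and was also higher in astrocytes than in neurons (227 ± 116 against 22.8 CPM), had 93.4, 160 and 205 CPM in formalin and 256, 430, 584, 317 and 221 in rotarod mice, without overlap. Its log2 difference was −1.23 (SE 0.27, edgeR adjusted p = 0.0122), lost without rotarod 2 (edgeR adjusted p = 0.0673) or rotarod 3 (0.0687). The 8 pericyte markers summed to 370 ± 136 CPM in astrocytes and to 5423 in the endothelial or vascular class, with Rgs5 at 13.8 ± 14.1 CPM and Kcnj8 at 0 in astrocytes. The sum was 346 ± 118 CPM in control, 321 ± 84.7 CPM in formalin and 506 ± 178 in rotarod mice.

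Rassf2, a Ras-association tumour suppressor, had 27.7, 74.3 and 115 CPM in formalin and 299, 274, 162, 178 and 100 in rotarod mice, a log2 difference of −1.43 (SE 0.36, edgeR adjusted p = 0.0217). The call was lost without rotarod 1 (edgeR adjusted p = 0.0956), rotarod 2 (0.162) or rotarod 4 (0.0739). Cables1 had 41.6, 98.0 and 151 CPM in formalin and 384, 117, 421, 178 and 261 in rotarod mice (log2 −1.35, SE 0.33, edgeR adjusted p = 0.0191), lost without rotarod 1 (edgeR adjusted p = 0.0919), rotarod 3 (0.144) or rotarod 5 (0.0566). Eif3a, a subunit of a translation initiation factor, had a log2 difference of −1.26 (SE 0.31, edgeR adjusted p = 0.0191), lost without rotarod 2 (edgeR adjusted p = 0.0673) or rotarod 3 (0.140).

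The remaining 9 called genes, all lower after formalin, fell outside the rule for named genes. They were 4930432E11Rik, Atrx, Ddo, Esrrg, mt-Rnr1, Paqr8, Ppp4r1l-ps, Sptbn1 and Wipf1, with log2 differences from −0.70 to −1.49. The pseudogene 4930432E11Rik, the leading gene of the class, had 287, 575 and 936 CPM in formalin and 1964, 567, 2658, 1367 and 1766 in rotarod mice (log2 −1.49, SE 0.28, edgeR adjusted p = 0.00440). The mitochondrial ribosomal RNA mt-Rnr1 had 335, 516 and 790 CPM against 1580, 860, 1394, 1189 and 1405, beside the higher mitochondrially encoded sum of the rotarod mice given above.

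Whether these differences were peculiar to astrocytes was tested for named called genes, which were chosen by their astrocyte call, a choice that favours a larger change on the astrocyte side of each difference. The within-mouse difference of log2(CPM + 10) between astrocytes and another class was compared between groups by a two-sided exact permutation test over mice, for 88 pairs of gene and class, and 31 passed after adjustment. Atg4a was higher after rotarod than in control in every class examined, by 1.15 in neurons, 1.31 in oligodendrocytes, 0.86 in the meningeal or Schwann class and 1.60 in the endothelial or vascular class, against 1.70 in astrocytes on this scale. None of its 4 differences from astrocytes passed (exact permutation adjusted p between 0.0758 and 0.902).

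Hif3a was near the floor in most other classes, with 2.66 and 1.07 CPM in neurons of rotarod and control mice, 10.1 and 4.51 in oligodendrocytes and 2.46 and 2.57 in the endothelial or vascular class. At these levels, beside a pseudocount of 10 CPM, its differences from those classes restate its change in astrocytes and are not read here. In the meningeal or Schwann class it had 32.5 and 33.9 CPM, and the difference of 1.44 from the meningeal or Schwann class did not pass (exact permutation adjusted p = 0.142). Ccnl2 fell more in astrocytes than in neurons, oligodendrocytes and the meningeal or Schwann class, by −1.17, −1.40 and −1.44 (exact permutation adjusted p = 0.0228, 0.0244 and 0.0176). Its difference of −1.23 from the endothelial or vascular class did not pass (exact permutation adjusted p = 0.0917). Upf2 was lower after formalin than after rotarod by more in astrocytes than in all 4 classes, with differences from −0.92 to −1.24 (exact permutation adjusted p between 0.0176 and 0.0264). For rotarod against control, Upf2 passed against neurons and oligodendrocytes (exact permutation adjusted p = 0.0304 for both). It did not pass against the meningeal or Schwann class (1.47, exact permutation adjusted p = 0.0534) or the endothelial or vascular class (1.07, exact permutation adjusted p = 0.120).

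Other genes moved in the same direction elsewhere. Snx9 rose by 1.11 after rotarod in oligodendrocytes against 1.40 in astrocytes, a difference that did not pass (0.29, exact permutation adjusted p = 0.591), while that from neurons did (0.99, exact permutation adjusted p = 0.0256). Snhg11 was higher after formalin than after rotarod in neurons (0.58), oligodendrocytes (1.21), the meningeal or Schwann class (1.08) and the endothelial or vascular class (1.19), against 1.55 in astrocytes, and no difference passed (exact permutation adjusted p between 0.107 and 0.527). Slc6a11 differed from oligodendrocytes by −1.18 (exact permutation adjusted p = 0.0473), with oligodendrocyte levels of 25.7 ± 15.4 CPM in formalin and 22.0 ± 10.8 in rotarod mice. These levels are low beside the pseudocount of 10 CPM, so the difference mostly restates the change in astrocytes.

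**Figure D5:**
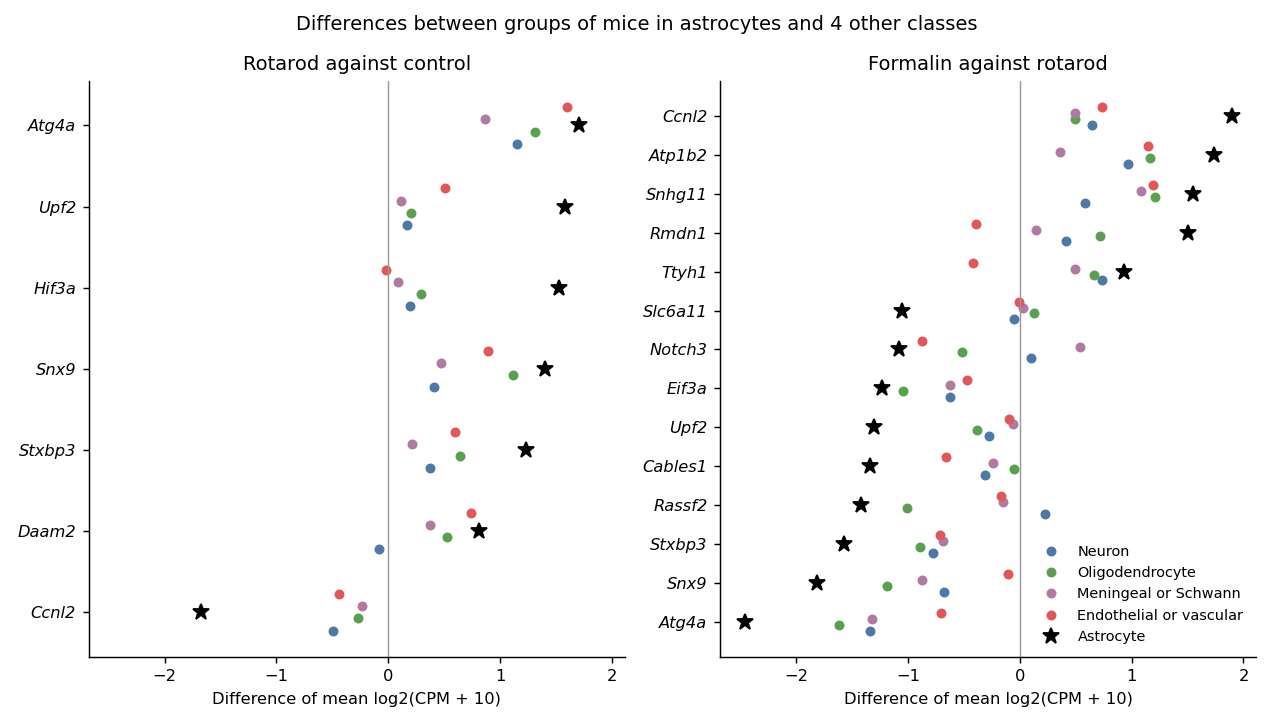
Differences of mean log2(CPM + 10) between groups in astrocytes (star) and in neurons, oligodendrocytes, the meningeal or Schwann and the endothelial or vascular class, for genes called in astrocytes. For Atg4a the other classes lie on the same side as astrocytes, and for Hif3a, which was near the floor in neurons, oligodendrocytes and the endothelial or vascular class, they lie near 0.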

How the data were processed

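Nuclei of lumbar cord were profiled by droplet sequencing in 24 libraries, each counted as a mouse. The deposited table holds raw counts of UMIs per gene and nucleus, not normalized, beside the authors' own class of each nucleus. The submitters' processing notes name the builds mm10 and GRCm38; the aligner, the use of intronic reads and of strand, and how doublets were treated were not given in the sources used here. Groups were taken from the labels. The members and gene lists were chosen with earlier results of these data known.

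Counts were summed over astrocyte nuclei per mouse (at least 10 nuclei) and tested with edgeR 4.0.16 in R 4.3.3 (TMM, expression filter by group, quasi-likelihood F test, 1 fit over the 3 groups, Benjamini-Hochberg adjusted p under 0.05 called), with DESeq2 1.42.0 as an alternative. The fold change is on the log2 scale. In data simulated for rotarod against control over 1804 genes, 62% of genes changed by log2 1, 82% by 1.5 and 100% by 2 were called, and 0.748% of unchanged ones. Every simulated gene had the same spread between mice (coefficient of variation 0.245 beside counting error), and 50 genes were changed at each size. Genes that vary more, or fewer changed genes, would lower these rates, so they are not the power in the deposited data. Shares and class differences were tested by exact permutation over mice in Python 3.11.15 (numpy 2.4.6, scipy 1.17.1, pandas 2.3.3, matplotlib 3.10.9).

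Named were the 4 markers, up to 8 called genes with the largest rise and 8 with the largest fall (at least 20 CPM in the higher group, no predicted symbols), up to 4 called members of a list, the 5 smallest p where fewer than 5 were called, and for classes the 20 largest ratios among genes of at least 100 CPM and up to 6 members a list. For nuclei with a Gfap UMI, list members and the genes with the 10 highest lower or 10 lowest upper interval bounds were taken. Same-numbered formalin and rotarod libraries are unrelated in their deviations, so the number was no block. Overlapping genes and list members not matched in the table were not analysed here. The values of some genes are not reported here. Positions are from GENCODE on GRCm38.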

Additional observations from a re-analysis of the deposited data

Results flagged for a closer look

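A single mouse stood apart from the rest of its group in 8 of 99 sets of mice examined by Dixon's criterion at 95%, where chance alone flags about 1 in 20. Rotarod 3 was high for 3 genes: Slc1a2 at 3307 CPM with the others at 2487 to 2659, Stxbp3 at 421 with the others at 213 to 274, and Atrx, a chromatin remodeller, at 1459 with the others at 773 to 919. Control 4, which had 38 astrocyte nuclei, was also high for 3 genes: Upf2 at 285 CPM with the others at 29.5 to 139, Stxbp3 at 190 with the others at 76.7 to 120, and Ddo, the D-aspartate oxidase gene, at 507 with the others at 139 to 280. Hif3a in control 2 was 216 CPM against at most 107 in the other controls, and Gabrg3 in formalin 3 was 309 CPM against at most 186 in the other formalin mice.

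Between astrocytes and another class, 31 differences of a group effect passed the exact permutation test over mice (astrocyte change minus the change in the other class, log2 of CPM + 10), of which those of the genes reported here are given. The genes were chosen by their astrocyte call, which favours a larger change on the astrocyte side. For rotarod against control, Hif3a differed by 1.33 from neurons, 1.23 from oligodendrocytes and 1.55 from the endothelial or vascular class, in all of which it was near the floor (for example 2.46 and 2.57 CPM in the endothelial or vascular class of rotarod and control mice), so that these values restate its change in astrocytes. Upf2 differed by 1.41 from neurons and 1.38 from oligodendrocytes, Snx9 by 0.988 from neurons, Stxbp3 by 0.861 from neurons and 0.590 from oligodendrocytes, and Daam2 by 0.893 from neurons. In neurons of rotarod and control mice Stxbp3 had 43.2 and 28.0 CPM and Daam2 30.7 and 33.7, where the added 10 CPM damps a change in part. Ccnl2 differed by −1.17 from neurons, −1.40 from oligodendrocytes and −1.44 from the meningeal or Schwann class.

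For formalin against rotarod, Ccnl2 differed by 1.25 from neurons, 1.40 from oligodendrocytes and 1.41 from the meningeal or Schwann class. Rmdn1 differed by 1.09 from neurons, 1.36 from the meningeal or Schwann class and 1.87 from the endothelial or vascular class, and Atp1b2 by 1.38 from the meningeal or Schwann class. Upf2 differed by −1.03 from neurons, −0.924 from oligodendrocytes, −1.24 from the meningeal or Schwann class and −1.11 from the endothelial or vascular class. Notch3 differed by −1.19 from neurons and −1.62 from the meningeal or Schwann class. Differences from neurons alone were −1.13 for Snx9, −1.64 for Rassf2 and −1.03 for Cables1, and Slc6a11 differed by −1.18 from oligodendrocytes. Rassf2 in neurons (14.3 CPM in formalin and 11.2 in rotarod mice), Notch3 in neurons and Slc6a11 in oligodendrocytes were low beside the pseudocount of 10 CPM. The pseudocount damps a change at such levels, so these values mostly restate the change in astrocytes. Atp1b2 in the meningeal or Schwann class (41.6 CPM in formalin and 24.8 in rotarod mice) was damped in part.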

How the results depend on the processing

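Over the genes named and their class differences, 2875 values under another setting kept their direction and their side of the threshold, 179 lost a call, 62 gained one and 22 turned sign. The counts of genes higher in astrocytes rest on how many mice must show the direction: with control mice only they were 704 against neurons, 702 against oligodendrocytes, 700 against the endothelial or vascular class and 2035 against oligodendrocyte precursors. Calls between rotarod and control went from 7 to 3 with DESeq2, 2 without the expression filter, 1 with nuclei thinned to 500 UMIs (424 genes tested) and 4 without nuclei above 2% of other-class markers. Of the 2 without the filter only Atg4a was among the 7. The 1 call with thinned nuclei was 4930432E11Rik. Of the 7 only Daam2 was abundant enough to be tested there, and it was not called. Leaving out 1 mouse gave 2 to 9 calls there (3 without control 1 or control 3, 2 without rotarod 1 or rotarod 3), 0 to 1 between formalin and control (1, Hif3a, without control 2 or formalin 7) and 8 to 25 between formalin and rotarod (13 without rotarod 1, 8 without rotarod 2, 14 without rotarod 3). Calls between formalin and rotarod went from 24 to 14 with formalin libraries merged in pairs and 7 with thinned nuclei, of which 5 were among the 24. Same-numbered formalin and rotarod libraries correlated between −0.125 and −0.0047 and share only a number: with the replicate block 5 genes were called, and 4 in the same 10 samples unblocked, a fit chosen after seeing the data, both over 851 genes. Without the 3 cx controls the share differences were −0.249 for formalin against control and −4.45 for rotarod against control. With a pseudocount of 50 CPM 53 class differences passed, and leaving out 1 mouse gave 18 to 35 (20 without rotarod 2, rotarod 3 or rotarod 4, 18 without rotarod 5). Class differences that had not passed turned sign with 1 mouse left out. From the endothelial or vascular class after rotarod, Atg4a ranged from −0.0793 to 0.656 and Daam2 from −0.123 to 0.456. For formalin against rotarod, Snhg11 ranged from −0.0438 to 0.499 against oligodendrocytes, −0.105 to 0.737 against the meningeal or Schwann class and −0.0641 to 0.512 against the endothelial or vascular class, turning without rotarod 3. The log2 difference of Slc1a2 turned to −0.0072 for formalin and −0.163 for rotarod against control without the expression filter, to −0.0160 for rotarod without the cx controls, to between −0.0293 and −0.0139 without control 4, control 6, control 8 or rotarod 3 (range −0.0293 to 0.164 with any 1 mouse left out), and to −0.0711 for formalin against rotarod with thinned nuclei. That of Gfap for rotarod ranged from −0.572 without rotarod 3 to 0.0788 without rotarod 4. The causes were not tested. Depth left 1804 genes abundant enough to test, and 1 UMI is 42.7 CPM in the shallowest mouse.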
